A study of Zea mays with 48 samples.

Results

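The maize genes yab14 (GRMZM2G005353) and yabby15 (GRMZM2G529859) encode transcription factors of the YABBY family, and 2 of the 39656 gene models in the deposited table carry these identifiers. Both were chosen by identifier because their transcripts come on early in the embryo. Their levels up to the age of onset are therefore given as a description with no test, and tests are kept to later ages. The embryos came from reciprocal crosses of the inbred lines B73 and Mo17. BM embryos had B73 as the seed parent and Mo17 pollen, and MB embryos had Mo17 as the seed parent and B73 pollen, so both kinds are F1 hybrids that differ in the direction of the cross. Ages are days after pollination (DAP). Laser capture microdissection (LCM) gave embryos of 3 and 5 DAP. Embryos of 5, 7, 9, 11 and 13 DAP were collected without a laser, per the sample names, and are called manual embryos here. Endosperm, the nutritive tissue beside the embryo, was taken at 5 DAP. These 8 sample kinds in 2 crosses had 3 replicates each, 48 libraries of messenger RNA in all, and each replicate pooled material of several ears. The labels do not say whether replicates shared ears, so p-values measure only the spread between these pools.

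YABBY proteins are plant-specific DNA-binding factors with a zinc finger and a YABBY domain. In Arabidopsis they are expressed on the lower (abaxial) side of leaves and floral organs and promote the flattening and outgrowth of the blade. In maize leaves, yab14 and its relative yab9 have been described on the upper (adaxial) side. The genes are absent from the shoot meristem itself in both plants, where class I KNOX homeobox genes such as kn1 are expressed, so YABBY transcripts in an embryo are usually read as a sign of lateral organs. In the grass embryo the first such organs are the scutellum, the coleoptile and the first leaves.

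Total counts per library were 7130090 to 21698127. Levels are given as CPM, the reads of a gene per 1000000 counted reads of its library. The intervals given on CPM are exact Poisson intervals at 95% and cover counting error only. The LCM libraries at 3 DAP did not all look alike for the 2 genes. BM replicate 1 held 215 to 390 reads each of yab14, yabby15, yab9 and yab10, and the other 5 libraries of that kind held 0 to 2. Every LCM value is therefore given by library. In these bulk samples, fewer cells of a type and less RNA per cell cannot be told apart. A gene counts as detected in a kind where it reached 1 CPM in all 6 libraries.

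Transcripts of yab14 were close to absent from most laser-captured embryos. At 3 DAP there were 321 reads in BM replicate 1, 25.2 CPM (22.5 to 28.1), and none in the other 2 BM libraries or the 3 MB libraries. The pooled count of 0 in the 3 MB libraries has an upper limit of 0.1045 CPM. At 5 DAP the 3 BM libraries again held no read, with an upper limit of 0.1105 CPM over the group. A floor of 3 counts over that group is 0.0899 CPM. The 3 MB libraries held 4, 313 and 74 reads, or 0.371, 26.9 and 6.76 CPM. All 3 MB libraries of LCM embryos at 5 DAP thus had reads where no BM library had one. The MB level over the 3 pooled libraries was 11.7 CPM, 130 times the BM floor of 3 counts. That multiple treats the pool as 1 sample and does not cover the spread between the MB libraries. MB replicate 2 held 313 of the 391 reads, and the multiple was 39.9 without it and 84.9 without BM replicate 1.

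The gene yabby15 followed the same libraries. At 3 DAP it had 230 reads in BM replicate 1, 18.1 CPM (15.8 to 20.6), 1 read in BM replicate 2 and none in the remaining 4 libraries. At 5 DAP the 3 BM libraries held none, and the MB libraries held 15, 433 and 218 reads, or 1.39, 37.1 and 19.9 CPM. The pooled MB level of 19.9 CPM was 222 times the BM floor, 119 times without MB replicate 2 and 145 times without BM replicate 1. The order of the 3 MB libraries was the same for both genes, with replicate 2 highest and replicate 1 lowest.

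The libraries that held reads of both genes also held those of their relatives yab9 (GRMZM2G074543) and yab10 (GRMZM2G167824). In BM replicate 1 at 3 DAP, yab9 was at 16.9 CPM and yab10 at 30.6 CPM, against at most 0.192 and 0.0958 CPM in the other 5 libraries of that age. The KNOX gene kn1 (GRMZM2G017087), which marks the shoot meristem, was at 37.3 CPM in that library and at 9.68 CPM in MB replicate 3, where yab14 and yabby15 had no read. In MB embryos at 5 DAP, replicate 2 was the highest of the 3 for yab9 (8.84 CPM), yab10 (23.9 CPM) and kn1 (11.1 CPM). Summed over 7 embryo marker genes, BM replicate 1 at 3 DAP was at 835 CPM, inside the range of 464 to 1015 CPM over the 6 libraries of that age. Across all genes its correlation with the other LCM libraries was 0.872 to 0.934. At 5 DAP, 17 genes of the endosperm transfer layer and embryo-surrounding region summed to 6511 to 24512 CPM in the MB and 2510 to 7174 CPM in the BM LCM libraries, with 1 and 6 of them at 0. Their part in the cross difference there was not tested.

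**Figure D1:**
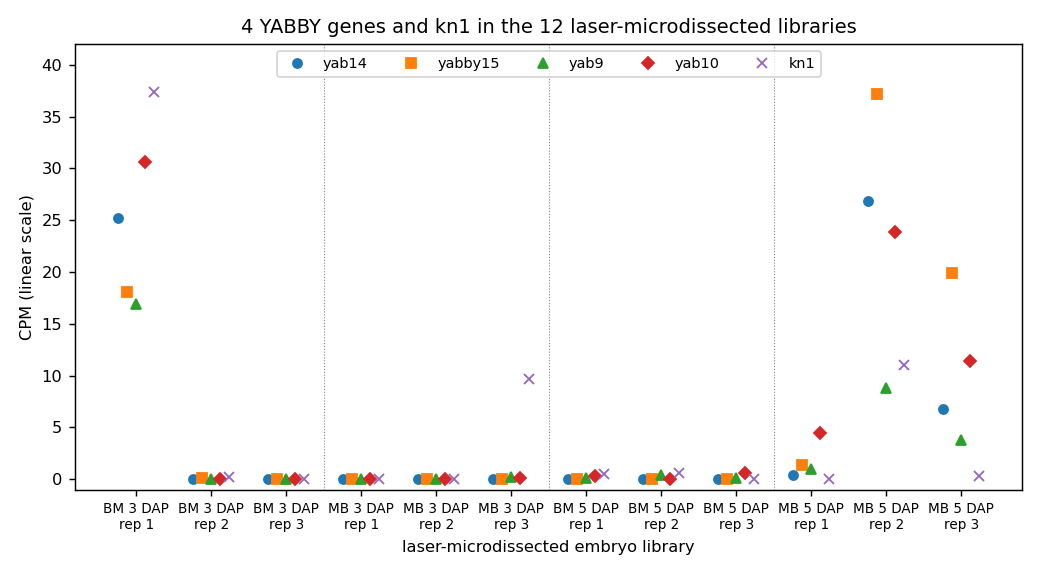
CPM of yab14, yabby15, yab9, yab10 and kn1 in each of the 12 LCM embryo libraries (x axis, cross, age and replicate), on a linear scale and not corrected for gene length. BM replicate 1 at 3 DAP and MB replicates 2 and 3 at 5 DAP carry nearly all reads of the YABBY genes shown, and the 3 BM libraries at 5 DAP lie at or below 0.558 CPM for them.

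In manual embryos at 5 DAP both genes were present in both crosses, and the crosses differed more than at any later age. For yab14 the BM libraries had 0.882, 1.91 and 2.02 CPM and the MB libraries 88.7, 79.3 and 82.2 CPM. The MB mean of 83.4 ± 4.83 CPM (SD, n = 3) was 52.0 times the BM mean of 1.60 ± 0.628 CPM, and the fitted log2 difference was 5.64 ± 0.18 (SE). For yabby15 the BM libraries had 9.03, 6.65 and 7.53 CPM and the MB libraries 65.2, 50.4 and 59.9 CPM, a ratio of means of 7.56 and a fitted log2 difference of 2.83 ± 0.14. Both differences are large against the spread of the 3 libraries and the groups do not overlap, but this cross contrast belongs to the pattern for which the genes were chosen, so no p is attached.

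By 7 DAP the BM embryos had caught up. The BM libraries had 106, 116 and 94.2 CPM of yab14, 65.5 times their 5 DAP mean, while the MB libraries had 115, 97.0 and 95.4 CPM, 1.23 times theirs. The groups overlap at 7 DAP, with a log2 difference of MB over BM of -0.09 ± 0.11. In BM embryos yabby15 reached 63.1, 58.6 and 61.2 CPM at 7 DAP, 7.88 times its 5 DAP mean, while in MB embryos it had 44.0, 34.0 and 35.5 CPM, 0.646 times its 5 DAP mean. The 2 genes therefore parted between 5 and 7 DAP in MB embryos, where the mean of yab14 was higher at 7 DAP and that of yabby15 lower, each without overlap of the libraries.

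By the detection rule yab14 first met 1 CPM in all 6 libraries of manual embryos at 7 DAP and yabby15 at 5 DAP. The later age of yab14 rests on 1 library, BM replicate 1 at 5 DAP with 0.882 CPM; with a limit of 0.5 CPM, with 1 FPKM, or with 4 of 6 libraries in place of all 6, its first age was also 5 DAP. With a limit of 10 CPM both genes came on at 7 DAP, and within MB embryos alone both were past 10 CPM at 5 DAP. Neither gene met the rule in LCM embryos or in endosperm, although yabby15 was past 1 CPM in all 3 MB libraries of LCM embryos at 5 DAP. For comparison, 47.1% of all gene models were detected by the same rule in manual embryos at 5 DAP, 46.8% at 7 DAP and 39.4% in LCM embryos at 5 DAP.

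Endosperm at 5 DAP lacked both transcripts. The 6 endosperm libraries held 4 reads of yab14 in all, 0.0625 CPM (0.0170 to 0.160), with 2 reads in BM replicate 3 and 2 in MB replicate 3. They held 1 read of yabby15, in MB replicate 3. Manual embryos of the same age had 3662 reads of yab14 over 6 libraries. The summed level of 17 endosperm genes of the transfer layer and the embryo-surrounding region was 12703 to 14337 CPM in BM manual embryos at 5 DAP, against 2364 to 2420 CPM in MB, and none of the 17 was at 0 in either cross. In the endosperm libraries themselves the same sum was lower than in BM manual embryos, at 1904 to 2756 CPM in BM and 161.5 to 927 CPM in MB. The 15 endosperm storage genes summed to 93.2 to 99.6 CPM in BM and 90.3 to 99.3 CPM in MB manual embryos at 5 DAP. The 7 embryo marker genes summed to 165.6 to 252.4 CPM in BM and 229.7 to 363.9 CPM in MB, with overlap. The part of these lists in the cross difference of yab14 and yabby15 was not tested.

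**Figure D2:**
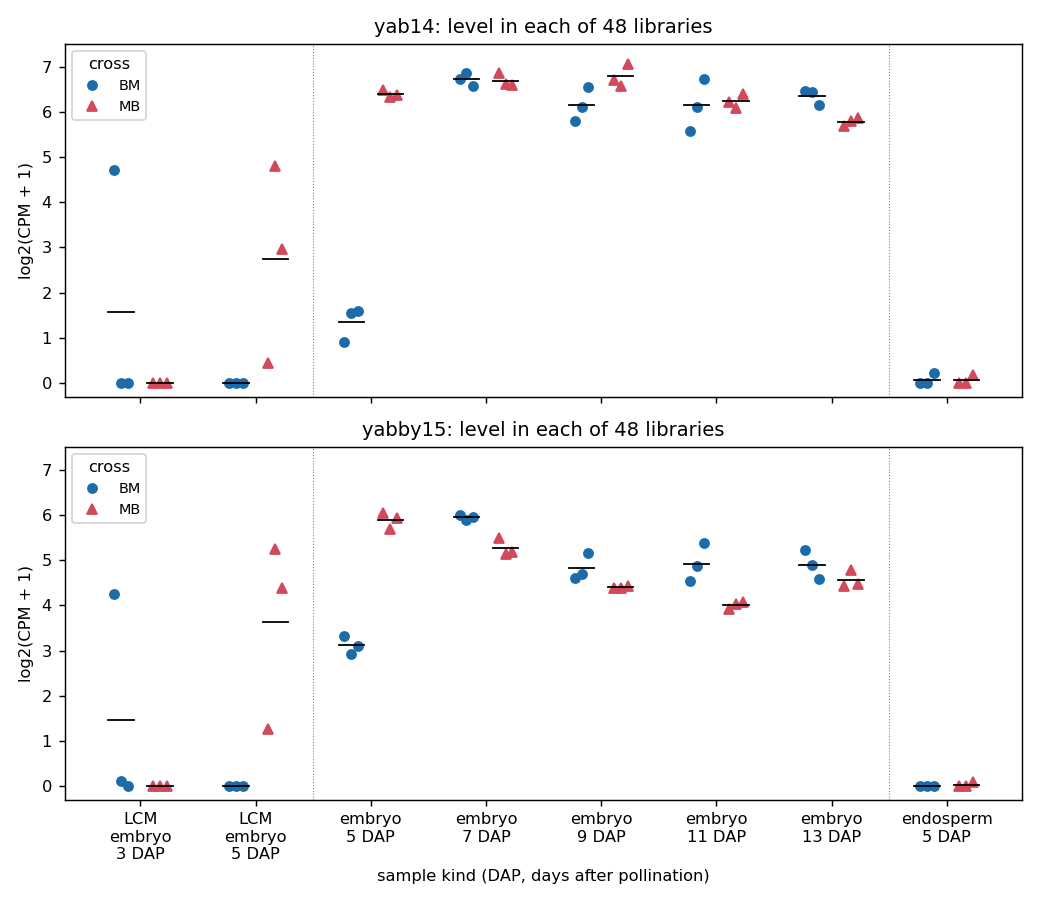
Level of yab14 (top) and yabby15 (bottom) in every library as log2(CPM + 1), by sample kind, with BM as circles, MB as triangles and a black line at the mean of each 3 points. In BM embryos both genes climb between 5 and 7 DAP, in MB embryos they are already high at 5 DAP, and endosperm lies near 0.

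Ordered by mean CPM over the 14 embryo groups, yab14 was highest in MB at 9 DAP (110 CPM), BM at 7 DAP (105 CPM) and MB at 7 DAP (103 CPM), whose libraries overlap. Next were, from 83.4 down to 54.1 CPM and each overlapping its neighbour in the order, MB at 5 DAP, BM at 13 DAP, both crosses at 11 DAP, BM at 9 DAP and MB at 13 DAP. The MB LCM group at 5 DAP and the BM LCM group at 3 DAP came next and overlap BM manual embryos at 5 DAP. For yabby15 the order began with BM at 7 DAP (61.0 CPM) and MB at 5 DAP (58.5 CPM), which overlap, and then MB at 7 DAP (37.8 CPM). BM at 11, 13 and 9 DAP and MB at 13 DAP followed, from 30.3 to 22.7 CPM, each overlapping the next. MB manual embryos at 9 and 11 DAP (20.0 and 15.1 CPM), with the MB LCM group at 5 DAP between them, and BM at 5 DAP (7.74 CPM) were lower.

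From 7 to 9 DAP the level of yabby15 fell, the only change with age after onset, by the rule of 1 CPM, that passed the test for either gene. The libraries had 23.4, 24.98 and 34.8 CPM in BM and 19.7, 20.0 and 20.4 CPM in MB at 9 DAP, all below the lowest library of their own cross at 7 DAP. The log2 change over both crosses was -1.0002 ± 0.10 (edgeR adjusted p = 4.23e-06, 6 libraries against 6), in a comparison in which 39.1% of all tested genes were called in either direction. It was not called in 1 fit over all 48 libraries (adjusted p = 0.224). With a limit of 10 CPM, 7 DAP is the onset age of yabby15 too. The edgeR p of this step and that of its cross difference at 7 DAP do not allow for that. Over the same step yab14 had a log2 change of -0.19 ± 0.17, given without a p because 7 DAP is its onset age. Its BM libraries went to 54.9, 67.6 and 92.6 CPM and its MB libraries to 104, 94.1 and 133 CPM, so the BM mean was lower and the MB mean higher than at 7 DAP.

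After 9 DAP no age step of either gene passed the test, which fitted a single change over both crosses. Within MB the libraries of neighbouring ages did not overlap at either step. There the mean of yab14 was 0.676 times as high at 11 as at 9 DAP, and 0.725 times at 13 as at 11 DAP. For yabby15 the same multiples were 0.7545 and 1.5. Within BM the libraries of both genes overlapped at each step. Steps within a single cross were not tested. At 11 DAP yab14 was at 47.0, 68.4 and 105 CPM in BM and 73.0, 66.9 and 83.6 CPM in MB, a log2 change from 9 DAP of -0.28 ± 0.21 (edgeR adjusted p = 0.353). At 13 DAP it was at 86.6, 85.6 and 70.3 CPM in BM and 50.4, 54.9 and 56.8 CPM in MB, -0.12 ± 0.17 from 11 DAP (edgeR adjusted p = 0.677). The spread of BM at 11 DAP, from 47.0 to 105 CPM, was the widest of any manual group in absolute CPM. At 11 DAP yabby15 was at 22.1, 28.1 and 40.6 CPM in BM and 14.1, 15.3 and 15.9 CPM in MB, a log2 change of -0.14 ± 0.15 (edgeR adjusted p = 0.516). At 13 DAP it was at 36.5, 28.7 and 22.8 CPM in BM and 20.4, 26.3 and 21.2 CPM in MB, 0.30 ± 0.17 from 11 DAP (edgeR adjusted p = 0.251). The tests called 26% of all genes from 9 to 11 DAP and 6.4% from 11 to 13 DAP.

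After onset the crosses differed less, and not in the same way for the 2 genes. For yabby15 the mean of MB was below that of BM at every age from 7 DAP on. The log2 difference was -0.75 ± 0.11 at 7 DAP (edgeR adjusted p = 0.00441) and -0.95 ± 0.19 at 11 DAP (edgeR adjusted p = 0.00709), with 3 MB libraries below 3 BM libraries each time; neither was called in 1 fit over all 48 libraries (adjusted p = 0.991 and 0.704). At 9 DAP it was -0.45 ± 0.16 and did not pass the test (edgeR adjusted p = 0.556, unadjusted p = 0.0172), although the MB libraries, at 19.7 to 20.4 CPM, lay below the BM libraries. At 13 DAP it was -0.29 ± 0.18 with overlapping groups (edgeR adjusted p = 0.277); without BM replicate 3 it was -0.44 and called (edgeR adjusted p = 0.0468). Between the crosses 8.32% of all genes were called at 7 DAP, 0.029% (6 of 20712) at 9 DAP, 14.3% at 11 DAP and 26.5% at 13 DAP. With 1 library left out, the 1794 genes called at 7 DAP became 419 (without BM replicate 2) to 3492 (without MB replicate 3), and the 3052 at 11 DAP became 856 (without MB replicate 2) to 3871 (without BM replicate 3).

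For yab14 the cross difference had opposite signs at 9 and 13 DAP. At 9 DAP the MB libraries, at 94.1 to 133 CPM, lay above the BM libraries, at 54.9 to 92.6 CPM, with a log2 difference of 0.64 ± 0.23 that did not pass the test (edgeR adjusted p = 0.576, unadjusted p = 0.0275). At 11 DAP the groups overlapped, with 0.07 ± 0.29 (edgeR adjusted p = 0.902). At 13 DAP the MB libraries, at 50.4 to 56.8 CPM, lay below the BM libraries, at 70.3 to 86.6 CPM, with -0.50 ± 0.10 (edgeR adjusted p = 0.00295). That call was lost with limma on log2(FPKM + 1) (-0.31, adjusted p = 0.0538) and in 1 fit over all 48 libraries (adjusted p = 0.848).

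The change of the cross difference between 9 and 13 DAP was itself tested as an interaction. For yab14 it was -1.13 ± 0.26 on the log2 scale (edgeR adjusted p = 0.0207, 12 libraries), among 7.88% of all genes called. The adjusted p was 0.0591 with no filter on low counts and 1 in the fit over all 48 libraries. It lay between 0.0515 and 0.0696 when BM replicate 2 at 9 DAP, BM replicate 2 at 13 DAP or any of the 3 MB replicates at 13 DAP was left out. For yabby15 the same term was 0.17 ± 0.25 (edgeR adjusted p = 0.762).

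Other markers differed between libraries of the crosses at these ages. At 7 DAP the summed transfer layer and embryo-surrounding genes were at 2390 to 2924 CPM in BM and at 628, 438 and 2886 CPM in MB, where replicate 3 stood apart from the other MB libraries. The same sum was 1468 to 1815 CPM in MB and 287 to 1370 CPM in BM embryos at 9 DAP, and at 44.8 to 70.7 CPM in MB and 547 to 1001 CPM in BM at 13 DAP, where 1 of the 17 genes had no read in MB. The sums of the 15 endosperm storage genes overlapped at 7 DAP, at 123.9 to 197.8 CPM in MB and 123.5 to 170.9 CPM in BM. At 9 DAP they went the other way from the transfer layer sum, at 158.7 to 242.5 CPM in MB and 354.5 to 611.5 CPM in BM. The storage genes summed to 576 to 688 CPM in MB and 1562 to 2407 CPM in BM at 13 DAP. The 6 ovule and seed coat genes were at 10.04 to 11.0 CPM in MB and 16.04 to 18.6 CPM in BM at that age, and the 7 embryo genes at 1194 to 2215 CPM in MB and 839 to 1654 CPM in BM. Their part in the cross differences of yab14 and yabby15 was not tested.

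**Figure D3:**
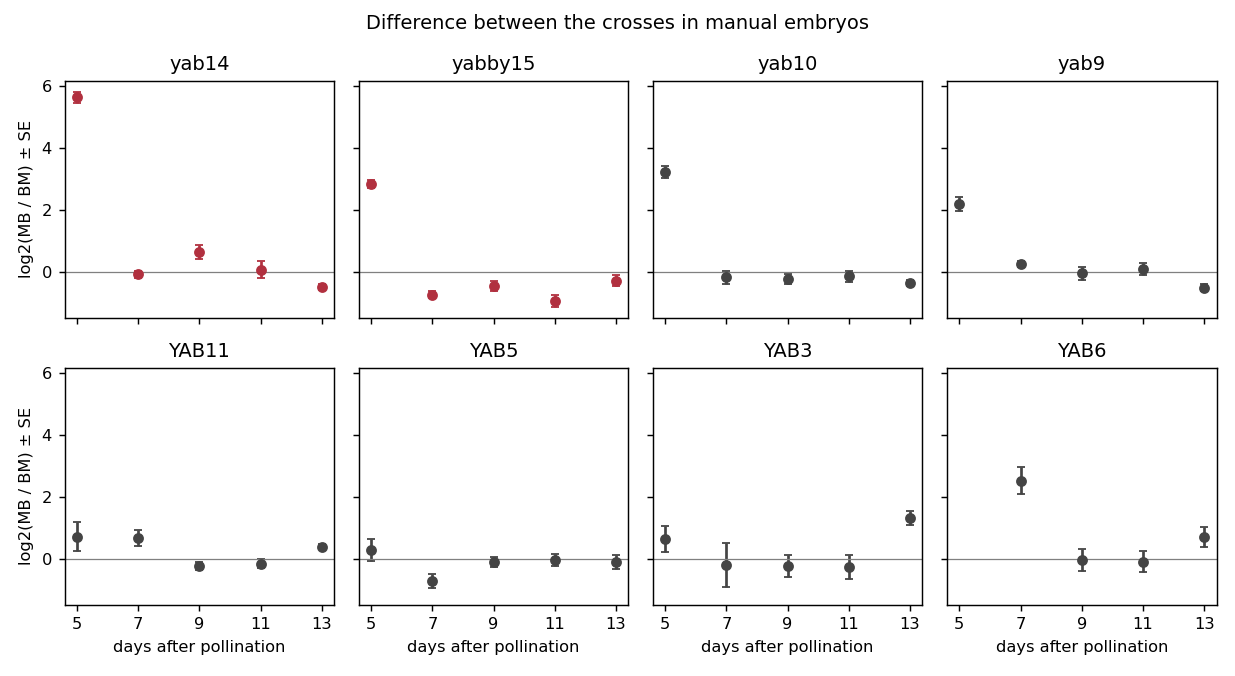
Log2 difference of MB over BM (y axis, dots with SE, 3 libraries a cross) at 5 to 13 DAP (x axis) in manual embryos for yab14 and yabby15 (red) and the 6 other YABBY genes (grey); YAB6 has no point at 5 DAP because it was filtered out there. yab14, yabby15, yab10 and yab9 lie between 2.18 and 5.64 at 5 DAP and within 1 log2 unit of 0 from 7 DAP on.

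Per unit of transcript length, on the authors' FPKM scale, the 2 genes exchanged order between 5 and 7 DAP in BM manual embryos. The ratio of yab14 to yabby15 FPKM within a library does not depend on library size. In BM manual embryos it was 0.107, 0.294 and 0.356 at 5 DAP, so yabby15 was the more abundant, and 2.198, 2.78 and 1.85 at 7 DAP. In MB manual embryos yab14 was already the more abundant at 5 DAP, with ratios of 1.65, 2.07 and 1.79. In MB LCM embryos of that age the ratios were 0.427, 0.772 and 0.338, the first from 4 reads of yab14. FPKM over CPM differed between the 2 collections for both genes, so their ratios are not set against each other. At 3 DAP, BM replicate 1 was the only LCM library with both genes, and yab14 was the more abundant there, with a ratio of 1.48. From 7 to 11 DAP the MB ratios, from 3.01 to 8.02, lay above the BM ratios of the same age, and at 13 DAP the groups overlapped, at 2.77 to 3.70 in MB and 3.26 to 3.76 in BM.

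The highest mean ratio was 6.69 ± 1.27 (SD, n = 3) in MB at 11 DAP, when yab14 was at 105 ± 13.9 FPKM and yabby15 at 15.9 ± 1.70 FPKM. BM embryos of that age had a ratio of 3.05 ± 0.597, with yab14 at 87.5 ± 23.6 FPKM and yabby15 at 28.9 ± 7.48 FPKM. For some groups the FPKM values were tighter than the CPM values: at 9 DAP in BM, yab14 ranged from 78.3 to 88.3 FPKM and from 54.9 to 92.6 CPM. FPKM over CPM for yab14 was 1.65 to 1.84 in LCM libraries and 0.950 to 1.61 in manual embryos among libraries with at least 50 reads, so FPKM levels of the 2 collections are not set against each other here.

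**Figure D4:**
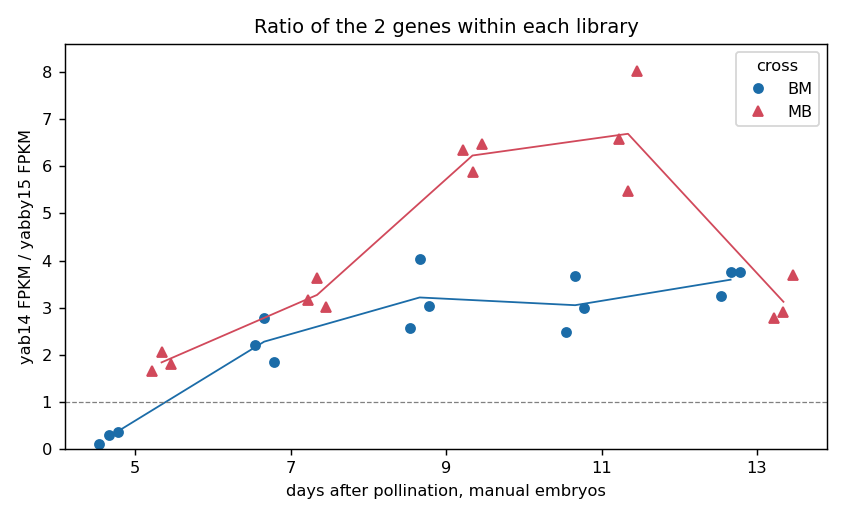
Ratio of yab14 to yabby15 FPKM within each manual embryo library (y axis) at 5 to 13 DAP (x axis), with BM as circles, MB as triangles, a line through the means of 3 libraries and a dashed line at equal FPKM. The 3 BM libraries at 5 DAP lie below 1, and the MB libraries at 9 and 11 DAP, at 5.48 to 8.02, lie above all others.

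The 6 other YABBY genes named in the reference table were yab9, yab10, YAB3 (GRMZM2G106204), YAB5 (GRMZM2G116646), YAB6 (GRMZM2G074124) and YAB11 (GRMZM2G141955). Together the 8 genes summed to 27.8 ± 2.59 FPKM in BM and 242 ± 10.2 FPKM in MB embryos at 5 DAP, and to 290 ± 18.2 and 255 ± 26.3 FPKM at 7 DAP (SD, n = 3). From 7 DAP on yab14 alone made up 40.0 to 57.4% of the family's FPKM in the group means, the largest share of the 8 in each manual group at those ages. The share of yabby15 was 31.2 ± 6.67% in BM embryos at 5 DAP and 7.60 to 21.5% in the group means from 7 DAP on. Endosperm had 0.539 and 0.580 FPKM for the whole family in BM and MB.

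In their cross difference at 5 DAP yab9 and yab10 were nearest to the 2 genes. They were the 2 of 5 tested relatives called there, both higher in MB, with log2 differences of 2.18 ± 0.22 and 3.23 ± 0.19 (edgeR adjusted p = 6.27e-05 and 9.58e-08), where 12.9% of all genes were called higher. The median of the 5 was 0.71 against 0.01 for all genes tested. In LCM embryos at 5 DAP the same 2 of 4 tested relatives were called higher in MB, yab9 by 4.06 ± 0.90 and yab10 by 5.16 ± 0.81 (edgeR adjusted p = 0.0252 and 0.0104), against 3.14% of all genes. The yab9 call was lost without BM replicate 1, BM replicate 3, MB replicate 2 or MB replicate 3 (adjusted p up to 0.128), and that of yab10 without BM replicate 1 (adjusted p = 0.0527). These contrasts share the libraries in which yab14 and yabby15 were chosen, so the likeness is a description.

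Between 5 and 7 DAP, in fits over both crosses, 3 of the 6 relatives were called higher and none lower, while 40.6% of all genes were called. They were YAB11 (2.42 ± 0.23), yab10 (1.78 ± 0.62) and YAB5 (0.99 ± 0.26), with edgeR adjusted p of 1.2e-06, 0.0456 and 0.00612. In BM embryos the mean CPM of yab10 was 12.4 times and that of YAB5 2.73 times as high at 7 DAP. In MB embryos the multiples were 1.13 and 1.34, with overlapping libraries. YAB11 rose in both crosses, 5.26 times in BM and 5.05 times in MB. YAB6 went from 1.22 to 0.305 CPM in BM and from 0.421 to 1.82 CPM in MB, without overlap in either. The call of yab10 was lost without any of BM replicates 1, 2 and 3 at 5 DAP, MB replicates 2 and 3 at 5 DAP and BM replicates 1, 2 and 3 at 7 DAP (adjusted p up to 0.119). From 7 to 9 DAP yab10 fell by 0.62 ± 0.13 on the log2 scale (edgeR adjusted p = 0.00267), as yabby15 did, and YAB11 rose by 1.27 ± 0.19 (edgeR adjusted p = 0.000154). YAB11 went on rising at each later step, by 0.33 ± 0.09 to 11 DAP and 0.56 ± 0.11 to 13 DAP (edgeR adjusted p = 0.0176 and 0.0158). The last of these calls was lost without MB replicate 1 at 11 DAP or MB replicate 3 at 13 DAP (adjusted p = 0.053 and 0.051). In BM embryos (n = 3) the mean level of YAB11 was 31.0 ± 1.77 CPM (SD) at 13 DAP, where at 5 DAP it had been 1.18 ± 0.271 CPM. YAB3 rose by 1.16 ± 0.28 from 9 to 11 DAP (edgeR adjusted p = 0.008).

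**Figure D5:**
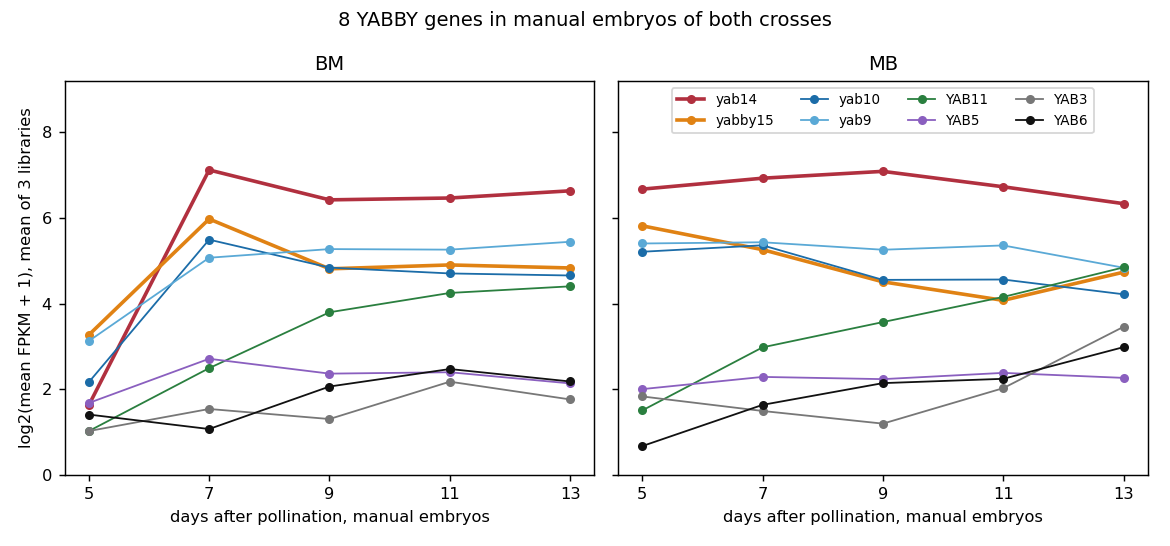
Group means of the 8 YABBY genes as log2(mean FPKM + 1) (y axis) at 5 to 13 DAP (x axis) in BM (left) and MB (right) manual embryos, 3 libraries a point. yab14 is the highest line from 7 DAP on in BM and at every age in MB, and YAB11 climbs from near the bottom to 20.2 FPKM in BM at 13 DAP, below yabby15, and 27.8 FPKM in MB, above it.

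Across crosses at later ages the family split. At 7 DAP 1 of 6 relatives was called, YAB6, higher in MB by 2.52 ± 0.44 (edgeR adjusted p = 0.0082), a call lost without BM replicate 1 (adjusted p = 0.0515), while 3 relatives were called without MB replicate 3. At this age 8.32% of all genes were called. With limma on log2(FPKM + 1) the difference of YAB6 was 0.54 and not called (adjusted p = 0.328), and its groups overlapped in FPKM. At 9 and 11 DAP edgeR called 0 of 6, DESeq2 also 0, and 0 had an unadjusted p under 0.05. At 13 DAP 4 of 6 were called, where 26.5% of all genes were: yab9 and yab10 lower in MB, like yab14, by -0.52 ± 0.12 and -0.37 ± 0.10 (edgeR adjusted p = 0.00998 and 0.0144), and YAB3 and YAB11 higher, by 1.31 ± 0.23 and 0.39 ± 0.08 (edgeR adjusted p = 0.00147 and 0.00483). The yab9 call was lost without MB replicate 1 (adjusted p = 0.0534), and the yab10 call without BM replicate 1 or MB replicate 3 (adjusted p = 0.0642 and 0.0571). In endosperm against manual embryos at 5 DAP all 5 tested relatives were lower, from -3.13 ± 0.63 for YAB11 to -8.00 ± 0.48 for yab10 (edgeR adjusted p = 0.000339 and 3.49e-09), where 42.2% of all genes were called lower.

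Genes that act beside YABBY genes at the shoot apex were read from lists of symbols. At 5 DAP 5 of 8 tested KNOX genes were higher in MB and none lower, with a median log2 difference of 2.72 against 0.01 for all genes, of which 12.9% were called higher. They included kn1, at 70.1 to 83.8 CPM in MB and 0.621 to 0.831 CPM in BM (6.58 ± 0.16, edgeR adjusted p = 1.28e-11) and lg3 (2.98 ± 0.45, edgeR adjusted p = 0.000676). Among 17 tested genes of leaf polarity and lateral organs, 6 were higher in MB and 2 lower, with a median of 0.01, the same as that of all genes. The higher ones included rs2, a MYB repressor of KNOX genes (2.67 ± 0.31), AS2 (2.48 ± 0.44), the KANADI genes kan1 (1.80 ± 0.41) and mwp1 (1.39 ± 0.29); the class III HD-ZIP gene rld2, which promotes upper leaf fate, was lower (-0.53 ± 0.08), with edgeR adjusted p of 3.19e-05, 0.00115, 0.00578, 0.00318 and 0.000194.

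From 7 to 9 DAP, the step at which yabby15 fell, 9 of 18 polarity genes fell and 2 rose, with a median of -0.60 against 0.00 for all genes, of which 39.1% were called in either direction. Those that fell included wox3A, a WUSCHEL-related gene of the leaf margin (-2.34 ± 0.24), ns1, its narrow sheath relative (-1.20 ± 0.24), and rs2 (-0.80 ± 0.16), with edgeR adjusted p of 3.14e-06, 0.0012 and 0.00154. Of 9 KNOX genes 3 fell and none rose (1 was called without MB replicate 3 at 7 DAP), a share near that of all genes, with kn1 at -1.06 ± 0.14 (edgeR adjusted p = 4.94e-05), and both tested genes of the boundary list fell, CUC2 by 2.68 ± 0.39 and lg2 by 1.21 ± 0.33 on the log2 scale (edgeR adjusted p = 7.36e-05 and 0.0082). At 13 DAP, where yab14 was lower in MB, 4 of 8 KNOX genes were lower and none higher (2 without BM replicate 1 or BM replicate 2, and 1 with limma on FPKM), where 26.5% of all genes were called, with kn1 at -0.62 ± 0.12 and gnarley1 (knox4) at -0.75 ± 0.16 (edgeR adjusted p = 0.00233 and 0.00422), and of 16 polarity genes 4 were higher and 3 lower.

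The genes whose pattern was most like that of each gene were taken by Pearson r of log2(mean CPM + 1) across the 16 group means, among 17436 genes with a group mean of at least 10 CPM. These groups share tissue, collection and depth, so high values are common, and r is a description. For yab14 the 5 highest were GRMZM2G176390 (0.986), GRMZM2G032547 (0.984), yab10 (0.983), GRMZM2G149481 (0.981) and GRMZM2G072238 (0.979). Named genes that came after these included bHLH173 (0.973), gnarley1 (0.968) and yab9 (0.963). For yabby15 they were yab10 (0.980), GRMZM2G057820 (0.974), GRMZM5G879749 (0.970), the auxin influx carrier gene aic1 (0.965) and GRMZM2G149481 (0.963), followed among named genes by yab14 (0.942), yab9 (0.941) and ada2 (0.934). The 2 genes correlated with each other at 0.942, which was rank 42 for yab14 and rank 13 for yabby15, and at 0.731 over the 10 groups of manual embryos alone. By Spearman's rho over the same groups none of the 5 highest of yab14 and 2 of those of yabby15 remained among the 5 highest.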

How the data were processed

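Libraries were sequenced on a HiSeq2500, per the labels' protocols. FastQC, TopHat, HTSeq and Cufflinks 2.2.1 are named in the submitters' processing notes, without roles; no source used here gives the genome build, the annotation or whether counting used strand, so antisense transcripts and near-identical YABBY copies cannot be told apart from each gene. The deposited table holds the authors' raw counts per gene model, per the file headers, and the authors' FPKM for the same libraries. Groups follow the sample titles. CPM was computed here as the count over the sum of all gene models in a library (7130090 to 21698127).

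Comparisons were fitted with edgeR 4.0.16 in R 4.3.3 (filterByExpr, TMM, robust glmQLFit, glmQLFTest, two-sided) with Benjamini-Hochberg adjustment over all genes tested, and an adjusted p below 0.05 was a call. Age and tissue fits used 12 libraries with cross as a term, reciprocal fits 6 and the interaction 12. The SE of an edgeR log2 value was taken as its absolute value over the square root of the F statistic of glmQLFTest. Fits were tested on simulated counts with the same dispersion for every gene, a simpler setting than these libraries. For the step from 9 to 11 DAP, the crosses at 9 DAP and the interaction, 100, 98 and 65% of log2 changes of 1 were recovered. Log2 changes of 2 were recovered at 100% in each, and 2.46 to 4.76% of calls were false. An interaction near 1 log2 unit can therefore be missed. Alternatives were RLE factors, DESeq2 1.42.0, no filter on low counts, a filter of 1 CPM in 3 libraries, a replicate block, a single fit to all 48 libraries, and leaving out each library. A further one was limma 3.58.1 on log2(FPKM + 1), where mean FPKM had to reach 1; that scale understates changes of low genes. The 2 genes, the lists (symbols of a RefSeq names table, assembly Zm-B73-REFERENCE-NAM-5.0, which matched 18775 of 39656 gene models) and the tests were chosen with earlier results of these data known. Named genes were the 2 genes, called members of the lists (examples stand in the text), and for each gene the 5 most alike of all and of those with a symbol.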

Additional observations from a re-analysis of the deposited data

Results flagged for a closer look

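A test of the difference itself singled out 3 YABBY genes whose cross difference (MB over BM) changed between 9 and 13 DAP in manual embryos, with edgeR on 12 libraries and 7.88% of all genes called. For yab14 the change was -1.13 ± 0.26 on the log2 scale (adjusted p = 0.0207), from 110 ± 20.3 CPM in MB and 71.7 ± 19.2 CPM in BM at 9 DAP to 54.1 ± 3.30 and 80.9 ± 9.14 CPM at 13 DAP (SD, n = 3). For YAB3 it was 1.57 ± 0.42 (adjusted p = 0.0319), from 1.64 ± 0.204 CPM in MB and 1.95 ± 0.809 CPM in BM to 8.78 ± 0.669 and 3.77 ± 1.13 CPM. The YAB3 call was lost when BM replicate 1, MB replicate 1 or MB replicate 2 at 9 DAP, or BM replicate 1 or 2 or MB replicate 2 or 3 at 13 DAP, was left out (adjusted p up to 0.0957). For YAB11 it was 0.65 ± 0.16 (adjusted p = 0.0179), from 17.4 ± 0.616 CPM in MB and 20.9 ± 2.81 CPM in BM to 38.3 ± 0.753 and 31.0 ± 1.77 CPM. The YAB11 call was lost without MB replicate 1 at 9 DAP or BM replicate 2 at 13 DAP (adjusted p = 0.0506 and 0.0546). Groups of 3 libraries were too small to single out one library by a rule. The comparison of 9 with 13 DAP was chosen with earlier results of these data known, and its p-values do not allow for that choice.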

How the results depend on the processing

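For yab14 and yabby15, all tests kept direction and side of the threshold under RLE size factors, DESeq2 and a filter of 1 CPM in 3 libraries. In 1 fit over all 48 libraries every call of the 2 genes was lost with nearly the same log2 values: -1.01 for yabby15 from 7 to 9 DAP, -0.75 and -0.92 for its cross difference at 7 and 11 DAP, -0.52 for that of yab14 at 13 DAP and -1.16 for its interaction; the cause was not tested. With limma on log2(FPKM + 1) the yab14 difference at 13 DAP was -0.31 and not called, and with no filter on low counts its interaction was -1.12 and not called; the cause was not tested. Leaving out each library gave -0.14 to 0.41 for yab14 between the crosses at 11 DAP (below 0 without BM replicate 1 or MB replicate 3, the latter -0.02) and -1.35 to -0.96 for its interaction. It gave -0.44 to -0.10 for yabby15 at 13 DAP and -0.0203 to 0.36 for its interaction, the lowest without BM replicate 3 at 9 DAP.

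The first age of yab14 in manual embryos was 5 DAP with 0.5 CPM, with 1 FPKM or with 4 of 6 libraries, and that of yabby15 was 7 DAP with 10 CPM. Of the 6 other YABBY genes, the fit over all 48 libraries called 1 from 7 to 9 DAP, 0 from 9 to 11 and 0 from 11 to 13 DAP, 1 between the crosses at 5 DAP, 0 at 13 DAP and 0 for the interaction. With FPKM 3 of those in endosperm against embryo and 0 between the crosses at 7 DAP were called, and with no filter 2 at 7 DAP. Leaving out libraries gave 0 to 1 calls from 11 to 13 DAP, 0 to 2 between the crosses in LCM embryos, 0 to 3 at 7 DAP and 0 to 2 for the interaction. Over all genes, the cross comparison at 9 DAP called 6 with edgeR, 128 with DESeq2, 50 with no filter, 1 with FPKM and 0 to 27 when libraries were left out. The step from 11 to 13 DAP called 1394 with edgeR, 3469 with DESeq2 and 106 to 3066 when libraries were left out. Leaving out libraries also moved the 1289 genes called between the crosses in LCM embryos at 5 DAP to between 239 and 1820, the 5430 at 13 DAP to between 3184 and 5232, and the 1691 of the interaction to between 949 and 2132. Of the other lists, 16 of the counts under alternatives moved by over 1.5 times and 118 did not. Polarity genes called were 7 (11 in the main comparison) from 7 to 9 DAP and 2 (8) and 2 (7) between the crosses at 5 and 13 DAP in the fit over all 48 libraries, and 5 and 3 with FPKM; KNOX genes were 0 (3) from 7 to 9 DAP and 0 (4) at 13 DAP over all 48 libraries and 1 (4) with FPKM. Boundary genes were 1 (2) from 7 to 9 DAP in both settings, and 0 (1) between the crosses at 5 and at 13 DAP over all 48 libraries. Of the 5 genes most like each, 3 of each were shared without BM LCM replicate 1 at 3 DAP, a setting chosen after seeing the data. Leaving libraries out of the LCM multiples at 5 DAP was also chosen after seeing the data. Of the same 5, 3 of each were shared with FPKM, 0 for yab14 and 2 for yabby15 by Spearman's rho, and 1 and 0 over manual embryos.

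In no comparison were all same-numbered deviations from the group mean correlated above 0.1 (the cross comparison at 9 DAP ranged from -0.07 to 0.37). Between 9 and 11 DAP 8 of 18 such pairs were above 0.1, up to 0.374. These correlations cannot tell whether some replicates shared ears. The main fits used no block. With a replicate block the yab14 difference at 9 DAP was 0.65 ± 0.11 and called (edgeR adjusted p = 0.0201), the interaction called 1 of 6 relatives in place of 2 and KNOX calls at 13 DAP were 2 in place of 4; the calls of yab10 from 5 to 7 DAP and at 13 DAP were lost, 98 genes were called between the crosses at 9 DAP and 210 from 11 to 13 DAP, and no other call of yab14 or yabby15 changed. A group without a read still has an upper Poisson limit of up to 0.1105 CPM in LCM embryos.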

Other observations

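In laser-captured embryos at 3 DAP, yab14 and yabby15 had reads in BM replicate 1 and a single read elsewhere, so no cross difference can be read from them. YAB5 had reads mainly in the MB libraries of that age. It was singled out after its values were seen, and its p-values do not allow for that choice. It had 135, 96 and 75 reads in the 3 MB libraries, 8.57 ± 1.77 CPM (SD, n = 3), and 1 read in each of the 3 BM libraries. The fitted log2 difference of 6.45 ± 0.91 did not pass the threshold over all genes (edgeR adjusted p = 0.123, unadjusted p = 4.61e-05), and the groups did not overlap. At 5 DAP the LCM libraries of both crosses ranged from 0 to 6.46 CPM of YAB5 and overlapped.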
